A study of Homo sapiens with 6 samples.

Results

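The 48 genes described here encode the machinery that carries newly made secretory and membrane proteins into the endoplasmic reticulum (ER) and moves them by coated vesicles between the ER and the Golgi. They were chosen by name, as 8 steps of this route, with earlier results of these data known. Each of the 48 symbols matched 1 row of the 25445 rows in the count table. RNA sequencing was performed in MHCC-97H, an established line of human liver cancer cells, which had received 10 μM 6j or only solvent 16 h earlier. Compound 6j is a derivative of the plant alkaloid sophoridine. Both groups had 3 libraries, with replicate numbers 1 to 3, and are named 6j treated and non-treated cells. All libraries came from the same line, so no other liver cancer line and no normal liver cell is represented. The labels do not say whether the replicates were separate cultures, and p-values therefore measure only the spread between these samples.

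A secretory protein begins with a signal peptide, which the signal recognition particle binds as it leaves the ribosome. The ribosome is then docked at the ER membrane, the chain passes through the SEC61 channel with help from the TRAP complex, and signal peptidase removes the signal peptide. Folded cargo leaves the ER in vesicles coated by COPII, and COPI vesicles return escaped ER proteins from the Golgi. Cells with a large secretory output, such as hepatocytes and plasma cells, need much of this machinery, and the unfolded protein response is known to raise the transcription of many of its genes.

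The libraries held totals of 31533403 to 38018349 counts, and the member with the lowest level still had 350 to 494 counts per library. Of the 11 liver and liver cancer markers checked, 8 stayed under 1 CPM (count per 1000000 counts of the library) in all 6 libraries, among them ALB and AFP. HNF4A measured 0.546 to 1.40 CPM, and the epithelial keratins KRT8 and KRT18 made up most of the summed marker level. That sum was 905 to 1110 CPM in non-treated cells and 706 to 825 CPM in 6j treated cells, and its part in the results below was not tested. Fibroblast markers summed to 248 to 329 CPM over all libraries, nearly all from COL1A1 and COL3A1, whereas COL1A2 was at 0. Among immune markers CD68 was found at 39.8 to 70.5 CPM, and PTPRC and CD3E were at 0.

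Upon 6j treatment the differences in the transport genes were small, and none of the 48 members reached the criteria of a differentially expressed gene (DEG). Levels are given in CPM after TMM scaling of the libraries, and changes as the log2 fold change of 6j treated over non-treated cells. The quasi-likelihood test of edgeR was fitted to all rows, and p-values were adjusted over the 15957 rows that passed its filter on low counts. All 48 members passed that filter. For a DEG, the adjusted p had to be under 0.05 and the change more than 1.5-fold. By these criteria 3.6% of all rows tested were DEGs.

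At an adjusted p under 0.05 without a fold criterion, 7 members rose and 2 fell. The 7 were SEC63, SSR3, SEC23B, SEC24D, MCFD2, COPA and KDELR2, and the 2 were SPCS1 and COPG2. The 7 were 14.6% of the members, against 4.79% of all rows tested and 6.51% of the 9850 rows at or above the mean CPM of the lowest member. The 2 were 4.17% of the members, near the 4.37% of all rows and the 6.52% of those 9850 rows. At an unadjusted p under 0.05 in edgeR, 18 members were higher and 3 were lower, against 13.1% and 13% of all rows tested and 16% and 17.8% of those 9850 rows. The fitted change was positive for 39 of the 48 members, against 8086 of the 15957 rows tested and 4776 of those 9850 rows. Its median was 0.14 over the members, 0.0046 over all rows tested and −0.0091 over those 9850 rows. Among the members the change ranged from −0.50 for COPG2 to 0.56 for SEC24D. DESeq2, fitted to the same counts, called 12 members higher and 2 lower, against 8.57% and 8.41% of the rows for which it gave an adjusted p. In a bulk library, fewer cells that express a gene and less RNA of it per cell cannot be told apart.

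More members passed once the replicate number was taken into account. Libraries of both groups with the same number deviated together from their group means. These deviations correlated at 0.171, 0.180 and 0.312, against −0.231 to 0.0795 between libraries of different numbers. The labels do not say that the numbers pair the libraries, so the pairing rests on the same counts that were tested. A second edgeR model took the number as a block, which compares each 6j treated library with the non-treated library of its number. In that model 17 members rose and 3 fell, which is 35.4% and 6.25% of the members. Over all rows the block gave 13.1% higher and 13.9% lower, and over the 9850 rows at or above the lowest member 17.4% higher and 19.8% lower. All 9 members called without the block were called with it. The other 11 were SEC61A1, SEC61G, SSR1, SSR2, SPCS2, SEC24A, SEC16A, LMAN1, COPB1 and ARCN1 upward and SRP14 downward. In 19 members every 6j treated library lay above every non-treated library, and in 4 every one lay below, which is 39.6% and 8.33% of the members. Over all rows tested such separation occurred in 16% upward and 15.8% downward.

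The calls without the block depended on single libraries. Without non-treated replicate 1, or without 6j treated replicate 2, no member passed at an adjusted p under 0.05. Over all rows the calls then dropped from 1462 to 202 and 217. Without non-treated replicate 2, 2 members were higher and none was lower, against 2.8% and 1.58% of the rows tested in that fit. Without non-treated replicate 3, 3 members were higher and 1 was lower, against 2.22% and 1.59% of the rows. The count was 8 higher and 1 lower without 6j treated replicate 1, against 5.07% and 4.8% of the rows, and 6 higher and none lower without 6j treated replicate 3, against 3.61% and 3.08%.

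**Figure D1:**
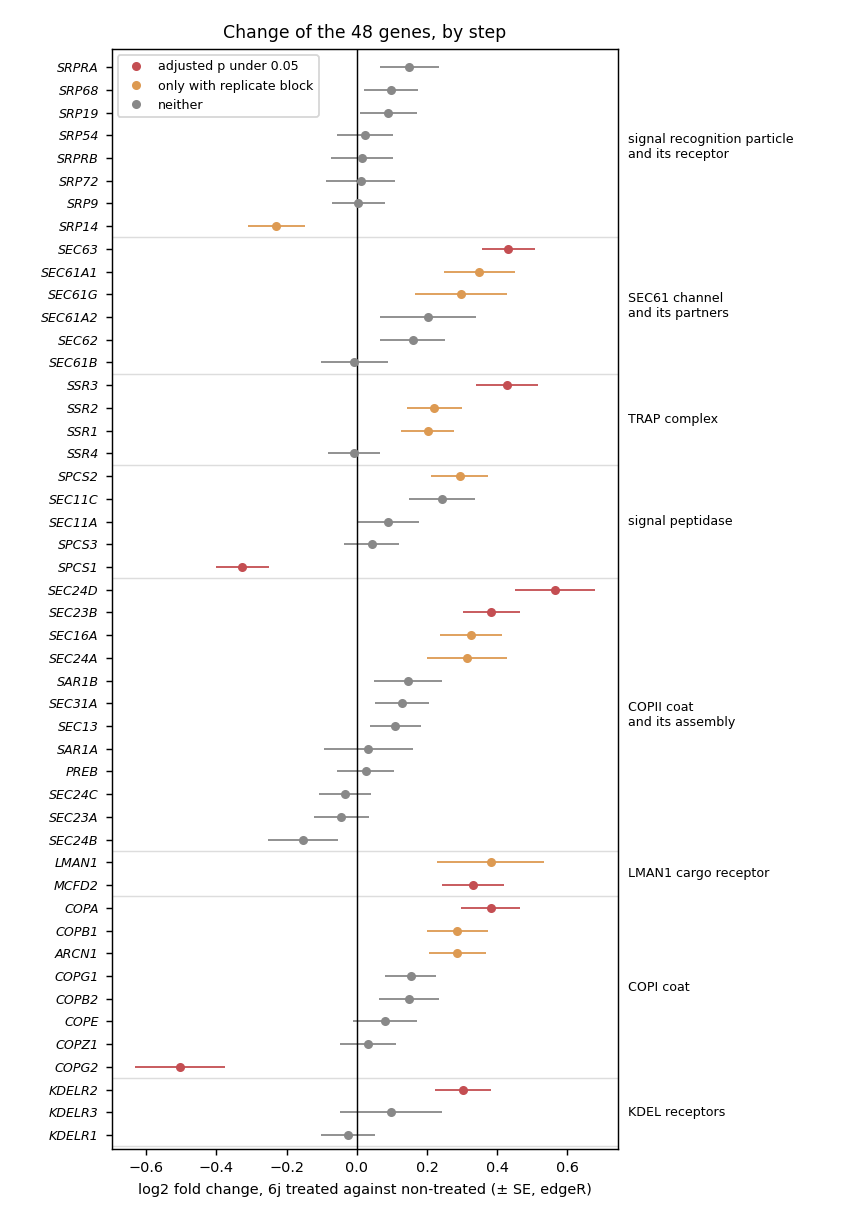
Log2 fold change of 6j treated over non-treated cells (x axis, edgeR fit, bars are ± 1 SE, n = 3 libraries per group) for each of the 48 genes (y axis), grouped by step, in red where the adjusted p was under 0.05, in orange where it was so only with the replicate block, and otherwise in grey. Most points lie right of 0, from −0.50 for COPG2 to 0.56 for SEC24D, and each step but the LMAN1 cargo receptor holds at least 1 gene close to 0.

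The promoters were searched because the unfolded protein response acts on genes of this route through short DNA elements. RefSeq promoter windows (GRCh38.p14) reach from 250 bases before to 50 after the start of the transcript, and such windows were held for 44 of the 48 members. The letters TGACGTGG, the core of an unfolded protein response element, were chosen with earlier results of these data known and searched on both strands. They occurred in 11 of the 44 members (25%), against 1.22% of the 10440 tested genes with a window and 0.927% of all 27305 genes with one. The sites are shown because 11 genes of 1 route hold the same 8 letters near their starts. Each is written in the direction of its gene, with 10 bases on either side and the match in capitals. Its reverse complement is CCACGTCA.
SRP19 (chr5:112861165-112861192, plus strand): agtcttcatgCCACGTCAgagactagag
SEC62 (chr3:169966780-169966807, plus strand): cctcctcgctCCACGTCAgagggaaccg
SSR3 (chr3:156554149-156554176, minus strand): ctgataacagCCACGTCAgcaaggaaac
SSR4 (chrX:153794529-153794556, plus strand): cagggaggggCCACGTCAgtgctgccag
SEC23A (chr14:39103222-39103249, minus strand): cccctcctctTGACGTGGcagaggcggc
SEC24A (chr5:134648596-134648623, plus strand): tgagagtcggTGACGTGGcggcgaggcc
SEC16A (chr9:136484708-136484735, minus strand): ggccctggtgCCACGTCAgccggactga
COPA (chr1:160343228-160343255, minus strand): agagggtcgcTGACGTGGaggcgtccga
COPB1 (chr11:14499842-14499869, minus strand): ccacccccttCCACGTCAgccaaggact
COPB2 (chr3:139389826-139389853, minus strand): ctcagcggcaCCACGTCAcggcccttag
COPB2 (chr3:139389633-139389660, minus strand): cccggaagttCCACGTCAgtcagtctga
KDELR3 (chr22:38468040-38468067, plus strand): gccgccctggCCACGTCAccgcccggcc

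COPB2 held 2 matches. The first base of a match lay at positions from −179 (SEC24A) to 31 (COPB2) relative to the RefSeq start. The matches spread over the signal recognition particle, the channel, TRAP, COPII, COPI and the KDEL receptors, and none was found in LMAN1, MCFD2 or the signal peptidase genes with a window. The RefSeq starts of SSR3, SSR4 and SEC23A lie 1059, 1152 and 6411 bp downstream of the first base that GENCODE 29 gives for the gene, and that of SEC16A lies at −981 bp, upstream of it. The shorter letters CCACG, which lie within the match, occurred in 39 of the 44 members (88.6%) and in 56.7% of the tested genes. CCAAT occurred in 20 members (45.5%) and 43.2% of the tested genes. The full ER stress response element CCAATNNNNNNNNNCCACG, its variant ATTGGNCCACG, and the letters TGACGTGA, TGACGTCA and TGATGCAA were in none of the 44 windows. They occurred in 0.153%, 0.134%, 0.757%, 3.7% and 0.709% of the tested genes. Of the 11 members with TGACGTGG, SSR3 and COPA rose (18.2%) and none fell, with a median change of 0.16. Of the 33 members with a window and no match, 3 rose (9.09%) and 1 fell (3.03%), with a median of 0.097. Over all rows tested 4.79% rose and 4.37% fell. With the replicate block, 5 of the 11 rose and 0 fell, and 10 of the 33 rose and 2 fell. All rows then gave 13.1% higher and 13.9% lower. A relation between the match and the change was not tested. A match of letters is a description of the window and does not show that a factor binds there.

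For the signal recognition particle and its receptor, none of the 8 members passed in edgeR, with fitted changes from −0.23 to 0.15 and a median of 0.019. SRP14 measured 219.9, 228 and 223 CPM in the non-treated libraries (replicates 1, 2 and 3), against 206, 176 and 190.4 CPM in the 6j treated ones. SRP14 forms, with SRP9, the part of the particle that slows the ribosome. Every 6j treated library lay below every non-treated library, and the log2 fold change was −0.23 ± 0.082 (SE, adjusted p = 0.113) in edgeR. With the replicate block the fall of SRP14 passed (−0.23 ± 0.067, adjusted p = 0.0236). Levels of SRP9 were 266, 268 and 291 CPM without treatment, by replicate number, and 272, 280.0 and 275 CPM after 6j. The groups overlapped, with a change of 0.0044 ± 0.076 (SE).

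SRPRA measured 196, 205 and 193 CPM in non-treated replicates 1 to 3, and 231, 229 and 199.8 CPM in 6j treated replicates 1 to 3. SRPRA, the receptor subunit that binds the particle on the ER surface, was higher in 6j treated cells at all 3 numbers, but the groups overlapped and the log2 fold change was 0.15 ± 0.084 (SE, adjusted p = 0.300). SRP19, SRP54, SRP68, SRP72 and SRPRB, the other proteins of the particle and the membrane anchor of the receptor, had changes of 0.011 to 0.097. In SRP19 the groups did not overlap, and in the others they did.

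At the SEC61 channel, the accessory protein SEC63 rose, and the other 5 members had fitted changes from −0.0070 to 0.35 that did not pass without the block. SEC63 measured 144, 141 and 143 CPM in the non-treated libraries (replicates 1, 2 and 3), against 180.1, 198 and 199 CPM in the 6j treated ones. SEC63 (chr6:107867756-107958189) carries the domain that recruits the chaperone HSPA5 to the inner side of the channel. The 3 non-treated libraries lay close together and every 6j treated library was above them, and the log2 fold change was 0.43 ± 0.076 (SE, adjusted p = 0.0121) in edgeR. The call was lost without non-treated replicate 1 (adjusted p = 0.0725) and without 6j treated replicate 2 (0.0682), and held in the other 4 of 6 fits.

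Levels of SEC61A1 were 417, 438 and 394 CPM without treatment, by replicate number, and 532, 589 and 468 CPM after 6j. SEC61A1 is the subunit that forms the pore. The groups did not overlap, and replicate 3 was the lowest in both. The log2 fold change was 0.35 ± 0.10 (SE, adjusted p = 0.0625) in edgeR and passed with the block (0.34 ± 0.057, adjusted p = 0.00120). It shares 344 bp of exon with RUVBL1 on the opposite strand, which fell (−0.49 ± 0.081, adjusted p = 0.0113). SEC61G and SEC61B are the small subunits of the channel. SEC61G measured 80.3, 85.2 and 93.8 CPM in non-treated replicates 1 to 3, and 84.6, 117 and 116 CPM in 6j treated replicates 1 to 3. The 6j treated libraries 2 and 3 were above all others for SEC61G, while 6j treated replicate 1 fell within the non-treated range. The log2 fold change was 0.30 ± 0.13 (SE, adjusted p = 0.191), and the rise passed with the block (0.28 ± 0.076, adjusted p = 0.0170). SEC61B had a change of −0.0070 ± 0.095, which turned positive without 6j treated replicate 1 and in other alternatives. SEC62, the partner of SEC63, had a change of 0.16 ± 0.092. SEC61A2 measured 9.45, 11.1 and 11.7 CPM in the non-treated libraries (replicates 1, 2 and 3), against 12.9, 12.7 and 11.5 CPM in the 6j treated ones. SEC61A2 is a second pore subunit of low level, and its groups overlapped, with a change of 0.20 ± 0.14.

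In the TRAP complex, which helps some signal peptides open the channel, 3 of the 4 members separated upward and SSR3 passed. Over all rows tested, 16% separated upward and 4.79% were called higher. Levels of SSR3 were 141, 136 and 149 CPM without treatment, by replicate number, and 179, 211 and 183 CPM after 6j. SSR3 (chr3:156540140-156555184), one of the membrane subunits of the complex, was highest in 6j treated replicate 2. For SSR3 the log2 fold change was 0.43 ± 0.088 (SE, adjusted p = 0.0210) in edgeR. Without non-treated replicate 1, non-treated replicate 2 or 6j treated replicate 2 its adjusted p was 0.102, 0.0718 or 0.0938, and the call held in the other 3 fits.

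SSR2 measured 139, 148 and 142 CPM in non-treated replicates 1 to 3, and 177, 162 and 159.6 CPM in 6j treated replicates 1 to 3. SSR2 was highest in 6j treated replicate 1, unlike SSR3. For SSR2 the log2 fold change was 0.22 ± 0.078 (SE, adjusted p = 0.110) without the block, and SSR2 passed with it (0.22 ± 0.067, adjusted p = 0.0304). SSR1 measured 456, 450.5 and 473 CPM in the non-treated libraries (replicates 1, 2 and 3), against 517, 535 and 533 CPM in the 6j treated ones. SSR1 separated with a narrow spread in both groups. Its log2 fold change was 0.20 ± 0.076 (SE, adjusted p = 0.131) and passed with the block (0.20 ± 0.054, adjusted p = 0.0160). Levels of SSR4 were 121, 122 and 123 CPM without treatment, by replicate number, and 119, 118 and 127 CPM after 6j. For SSR4 the 6j treated libraries lay on both sides of the non-treated ones, with a change of −0.0087 ± 0.074. It shares 278 bp of exon with IDH3G on the opposite strand, which fell (−0.46 ± 0.11, adjusted p = 0.0314).

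In signal peptidase SPCS1 fell, and SPCS2 rose with the replicate block. SPCS1 measured 82.9, 84.6 and 90.0 CPM in non-treated replicates 1 to 3, and 70.2, 68.4 and 66.7 CPM in 6j treated replicates 1 to 3. SPCS1 (chr3:52704955-52711146) is a small accessory subunit of the enzyme. All 6j treated libraries were below all non-treated libraries, and the log2 fold change was −0.33 ± 0.075 (SE, adjusted p = 0.0309) in edgeR. Its call held in 1 of 6 fits, that without 6j treated replicate 1, and otherwise the adjusted p was 0.0661 to 0.114. SPCS1 shares 2698 bp of its 5324 bp of exon with NEK4 on the opposite strand, which measured 0.099 ± 0.094 (adjusted p = 0.562), and counts of the pair cannot be told apart if strand was not used.

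SPCS2 measured 73.8, 76.9 and 81.6 CPM in the non-treated libraries (replicates 1, 2 and 3), against 89.7, 101 and 93.8 CPM in the 6j treated ones. SPCS2 is another accessory subunit. The 6j treated libraries all lay above the non-treated ones, the log2 fold change was 0.29 ± 0.082 (SE, adjusted p = 0.0567), and it passed with the block (0.29 ± 0.062, adjusted p = 0.00493). The catalytic subunits SEC11A and SEC11C had changes of 0.090 ± 0.087 and 0.24 ± 0.094. Levels of SEC11C were 33.9, 31.9 and 35.2 CPM without treatment, by replicate number, and 36.8, 41.8 and 41.1 CPM after 6j. The SEC11C groups did not overlap, but neither subunit passed with or without the block. SPCS3, which the enzyme also needs, had a change of 0.042 ± 0.079.

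In the COPII coat, 1 paralog of SEC23 and 1 of SEC24 rose. SEC24D measured 43.8, 49.3 and 55.6 CPM in non-treated replicates 1 to 3, and 65.1, 80.9 and 73.7 CPM in 6j treated replicates 1 to 3. SEC24D (chr4:118722823-118838683) is one of the 4 SEC24 proteins that select cargo. It had the largest fitted change among the 48 members, a log2 fold change of 0.56 ± 0.11 (SE, adjusted p = 0.0197) in edgeR. The groups did not overlap, and the highest non-treated library was replicate 3. Without non-treated replicate 1, non-treated replicate 2 or 6j treated replicate 2 the adjusted p was 0.0957, 0.0604 or 0.0996. In 2 of the fits that left out a library, without non-treated replicate 3 and without 6j treated replicate 1, its fold change passed 1.5, with log2 values of 0.65 and 0.64.

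SEC23B measured 123, 129 and 115 CPM in the non-treated libraries (replicates 1, 2 and 3), against 158, 168 and 152 CPM in the 6j treated ones. SEC23B (chr20:18507482-18561415) belongs to the inner coat and makes SAR1 hydrolyse its GTP. Every 6j treated library was above every non-treated library, with a log2 fold change of 0.38 ± 0.081 (SE, adjusted p = 0.0221). The call was lost without non-treated replicate 1 (0.104), non-treated replicate 3 (0.0744) or 6j treated replicate 2 (0.104). Levels of SEC23A were 138, 145 and 149 CPM without treatment, by replicate number, and 131, 147 and 142 CPM after 6j. The SEC23A groups overlapped, with a change of −0.044 ± 0.079.

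SEC16A measured 169.5, 151 and 155 CPM in non-treated replicates 1 to 3, and 197, 216 and 183 CPM in 6j treated replicates 1 to 3. SEC16A organises the ER exit sites at which the coat assembles. Its groups did not overlap and the log2 fold change was 0.33 ± 0.089 (SE, adjusted p = 0.0518) in edgeR, which is just above the threshold. It passed with the block (0.32 ± 0.072, adjusted p = 0.00617). SEC24A measured 66.6, 73.9 and 79.3 CPM in the non-treated libraries (replicates 1, 2 and 3), against 78.0, 92.0 and 103 CPM in the 6j treated ones. For SEC24A the lowest 6j treated library lay within the non-treated range, although each number had its higher value after 6j. For SEC24A the log2 fold change was 0.31 ± 0.11 (SE, adjusted p = 0.119), and it passed with the block (0.31 ± 0.060, adjusted p = 0.00316). Levels of SEC24B were 38.2, 38.3 and 37.8 CPM without treatment, by replicate number, and 35.5, 30.4 and 36.9 CPM after 6j. SEC24C measured 178, 178 and 166 CPM in non-treated replicates 1 to 3, and 176, 168 and 166 CPM in 6j treated replicates 1 to 3. The SEC24B groups separated downward, with a change of −0.15 ± 0.099, and those of SEC24C overlapped, with a change of −0.034 ± 0.075. The outer coat genes SEC13 and SEC31A had changes of 0.11 and 0.13 with separated groups. The GTPases SAR1A and SAR1B and the SAR1 activator PREB had changes of 0.033, 0.15 and 0.025 with overlapping groups. None of these 7 passed with or without the block.

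**Figure D2:**
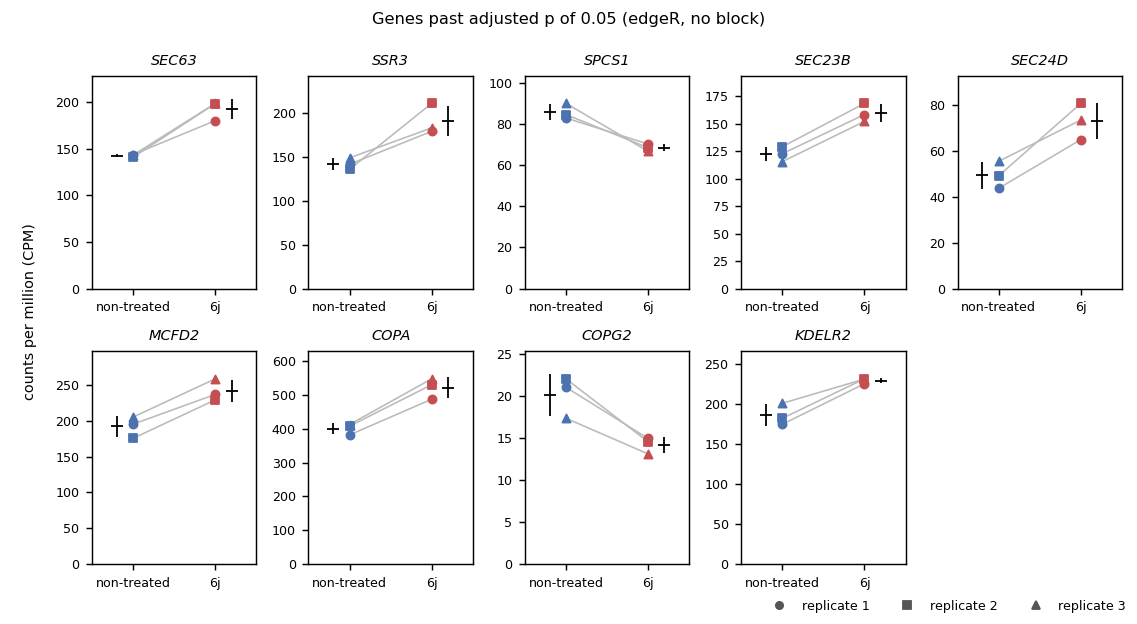
CPM (y axis from 0, own scale per panel) of the 9 genes past an adjusted p of 0.05 in non-treated and 6j treated cells, with 1 marker shape per replicate number, grey lines joining the same number and black bars for mean ± SD (n = 3). The groups do not overlap in any panel, and SPCS1 and COPG2 are the panels that go down. The genes were selected by a test on these same libraries, so the separation adds no separate support.

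The cargo receptor of LMAN1 and MCFD2, which carries some glycoproteins such as coagulation factors out of the ER, showed a rise of MCFD2, and a rise of LMAN1 with the replicate block. LMAN1 measured 389, 344 and 475 CPM in the non-treated libraries (replicates 1, 2 and 3), against 463, 477 and 633 CPM in the 6j treated ones. LMAN1 is the lectin of the pair. Replicate 3 was the highest library in both groups, and the lowest 6j treated library lay within the non-treated range. The log2 fold change was 0.38 ± 0.15 (SE, adjusted p = 0.158), with an SE that was the largest among the 48 members. Within each number LMAN1 was higher in 6j treated cells, by 0.25, 0.47 and 0.41 on the log2 scale, and the rise passed with the block (0.38 ± 0.060, adjusted p = 0.00085). The block model compares libraries of the same number, so the agreement of the numbers adds no separate support.

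Levels of MCFD2 were 195, 175 and 205 CPM without treatment, by replicate number, and 237, 229 and 258 CPM after 6j. MCFD2 (chr2:46901870-46941855), the calcium-binding partner, had separated groups. The log2 fold change was 0.33 ± 0.089 (SE, adjusted p = 0.04998) in edgeR, which lies at the threshold, and the call was lost in all 6 fits that left out a library (adjusted p of 0.0675 to 0.163). With the block it passed (0.33 ± 0.059, adjusted p = 0.00178). It shares 154 bp of exon with TTC7A on the opposite strand, which had a change of −0.12 ± 0.078.

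**Figure D3:**
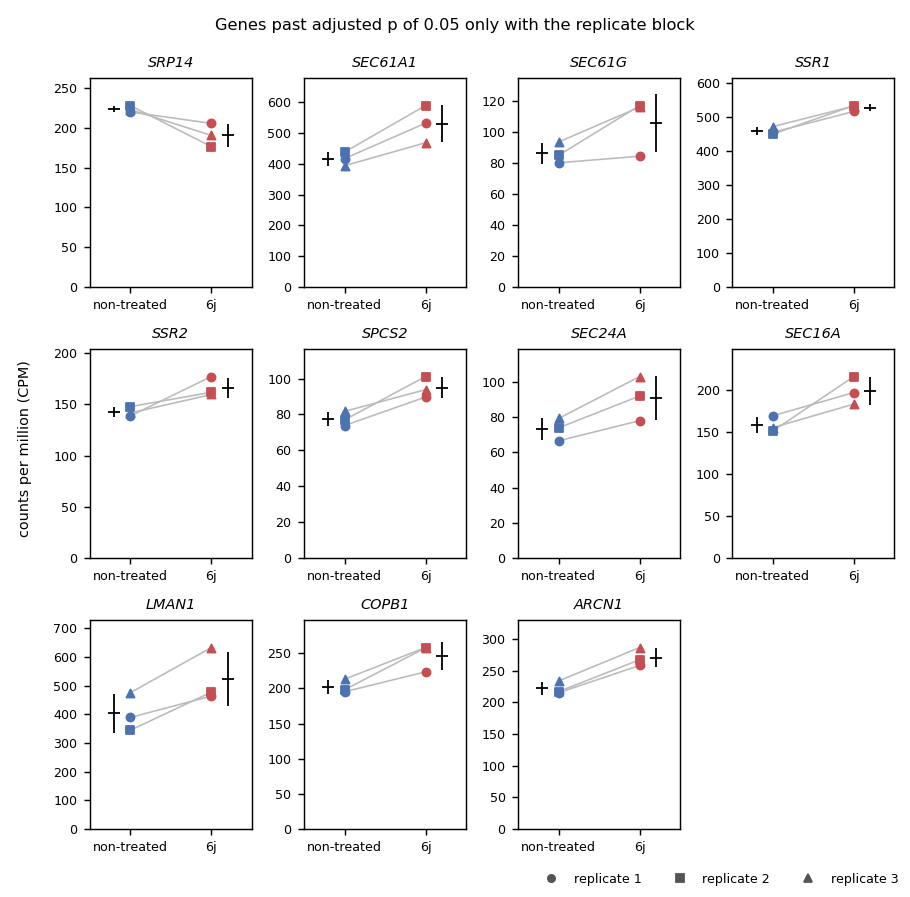
CPM (y axis from 0, own scale per panel) of the 11 genes past an adjusted p of 0.05 only with the replicate block, with marker shapes for replicate numbers, grey lines joining the same number and black bars for mean ± SD (n = 3). The lines run in 1 direction within each panel, down for SRP14 and up for the other 10. This holds also in LMAN1, SEC24A and SEC61G, where the groups overlap. The block model that selected these genes compares libraries of the same number, so the agreement of the lines adds no separate support.

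In the COPI coat, the large subunit COPA rose and COPG2 fell. COPA measured 382, 408 and 413 CPM in non-treated replicates 1 to 3, and 488, 531 and 548 CPM in 6j treated replicates 1 to 3. COPA (chr1:160288686-160343400) is the alpha subunit, which binds the retrieval signals of ER membrane proteins. The groups were far apart relative to their spread, and the log2 fold change was 0.38 ± 0.084 (SE, adjusted p = 0.0260) in edgeR. Its call held in 1 of 6 fits, without 6j treated replicate 1, and the adjusted p was 0.0568 to 0.139 in the others. COPA shares 129 bp of its 7723 bp of exon with NCSTN on the opposite strand, which had a change of −0.044 ± 0.11. The part of the shared bases in the counts of COPA was not tested.

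COPG2 measured 21.1, 22.1 and 17.4 CPM in the non-treated libraries (replicates 1, 2 and 3), against 15.0, 14.6 and 13.1 CPM in the 6j treated ones. COPG2 (chr7:130506238-130668748) is the less abundant of the 2 gamma subunits. All 6j treated libraries were below all non-treated ones, and the log2 fold change was −0.50 ± 0.13 (SE, adjusted p = 0.0427) in edgeR. Without non-treated replicate 3 the call held (0.0458), with a log2 fold change of −0.60 that is past 1.5-fold, and in the other 5 fits the adjusted p was 0.0560 to 0.163. COPG2 shares 101 bp of exon with TSGA13 on the same strand and 228 bp with MEST on the opposite one, and MEST had a change of −0.17 ± 0.11. Levels of COPG1 were 199, 203 and 214 CPM without treatment, by replicate number, and 228, 227 and 229.6 CPM after 6j. COPG1, its abundant paralog, was higher in every 6j treated library, with a change of 0.15 ± 0.073 that did not pass with or without the block.

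ARCN1 and COPB1, the delta and beta subunits, rose with the block. ARCN1 measured 215, 217 and 234 CPM in non-treated replicates 1 to 3, and 258, 267 and 287 CPM in 6j treated replicates 1 to 3. ARCN1 had separated groups with a similar distance at each number. For ARCN1 the log2 fold change was 0.29 ± 0.080 (SE, adjusted p = 0.0565) without the block and 0.29 ± 0.057, adjusted p = 0.00339 with it. COPB1 measured 195, 198 and 213 CPM in the non-treated libraries (replicates 1, 2 and 3), against 224, 258 and 258 CPM in the 6j treated ones. COPB1 was lowest in replicate 1 of both groups. Its log2 fold change was 0.29 ± 0.087 (SE, adjusted p = 0.0718) without the block, and 0.28 ± 0.062, adjusted p = 0.00547 with it. It shares 407 bp of exon on the same strand with AC018523.2, which did not pass (−0.45 ± 0.34). COPB2, COPE and COPZ1 had changes of 0.15, 0.080 and 0.032, with overlapping groups and no call in either model.

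Of the KDEL receptors, which bind escaped ER chaperones in the Golgi for return, KDELR2 rose. Levels of KDELR2 were 174, 182 and 200.4 CPM without treatment, by replicate number, and 225, 231 and 231 CPM after 6j. KDELR2 (chr7:6445953-6484242) had separated groups, with the 6j treated libraries close together. For KDELR2 the log2 fold change was 0.30 ± 0.080 (SE, adjusted p = 0.0474) in edgeR. The call was lost in all 6 fits that left out a library (0.0556 to 0.209) and held with the block (0.31 ± 0.062, adjusted p = 0.00382). It shares 376 bp of exon on the same strand with DAGLB, which had a change of −0.13 ± 0.092. KDELR1 measured 147, 141 and 157 CPM in non-treated replicates 1 to 3, and 146, 142 and 149 CPM in 6j treated replicates 1 to 3. In KDELR1 the groups overlapped, with a change of −0.025 ± 0.076. KDELR3 measured 23.3, 25.6 and 33.6 CPM in the non-treated libraries (replicates 1, 2 and 3), against 28.3, 27.5 and 32.5 CPM in the 6j treated ones. The KDELR3 groups overlapped too, with a change of 0.098 ± 0.14.

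To ask whether paralogs moved by unequal amounts, the log2 CPM difference of 2 paralogs was taken in each library and compared between the groups for all 14 pairs within the 7 families. With 3 libraries against 3 the exact permutation test (two-sided) cannot go below p = 0.1, and no pair can pass. The groups did not overlap in 7 pairs, each of which reached p = 0.1 (0.2 adjusted over the 14 pairs in this exact test). Of the single rows tested, 16% separated upward and 15.8% downward. In 6j treated cells the log2 difference of SEC23B to SEC23A was larger by 0.43 ± 0.083 (SE). That of SEC24D was larger by 0.72 ± 0.19 against SEC24B, 0.60 ± 0.17 against SEC24C and 0.26 ± 0.094 against SEC24A. The shift was −0.47 ± 0.16 for SEC24B against SEC24A, −0.65 ± 0.15 for COPG2 against COPG1 and 0.33 ± 0.046 for KDELR2 against KDELR1. With differences taken within replicate number, 12 of the 14 pairs moved in 1 direction at all 3 numbers, and the smallest p of that exact test is 0.25. The exceptions were SEC61A2 against SEC61A1 and SAR1B against SAR1A. Pairs of the same family share genes, so the 14 pairs are not independent. Each of the 7 separated pairs except SEC24B against SEC24A holds a member already called in edgeR without the block. Those shifts largely restate these calls and are not a separate result. Of the 15957 single rows tested, 4533 were higher and 4581 lower at all 3 numbers. A single row is another measure than a difference of 2 genes, and no share over other gene pairs was taken.

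Within families, levels can be set side by side per length. CPM were divided by the kilobases of exon in GENCODE 29, and each paralog is given as a percent of its family. SEC23B made up 63.4% ± 1.80 (SD, n = 3) of SEC23 in non-treated cells and 70.0% ± 1.33 in 6j treated cells. SEC24D made up 9.08% ± 1.05 and 12.6% ± 1.29 of the SEC24 family, and SEC24C remained the largest part, with 59.2% ± 2.43 and 54.5% ± 2.95. COPG2 was 9.53% ± 1.33 and 6.25% ± 0.43 of the gamma subunits in non-treated and 6j treated cells. KDELR2 was 36.7% ± 0.71 and 41.7% ± 0.90 of the KDEL receptors, and KDELR1 52.1% ± 1.69 and 47.2% ± 0.54. These shares did not overlap between the groups except for SEC24C. SEC61A2 (3.01% and 2.74% of the pore subunits), SEC11C (26.1% and 28.1% of the catalytic subunits) and SAR1B (17.5% and 18.6% of SAR1) overlapped. The order within a family depends on the exon lengths used. In CPM without division by length, non-treated cells had more SEC23A (mean 144) than SEC23B (122), and more KDELR2 (185) than KDELR1 (149).

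**Figure D4:**
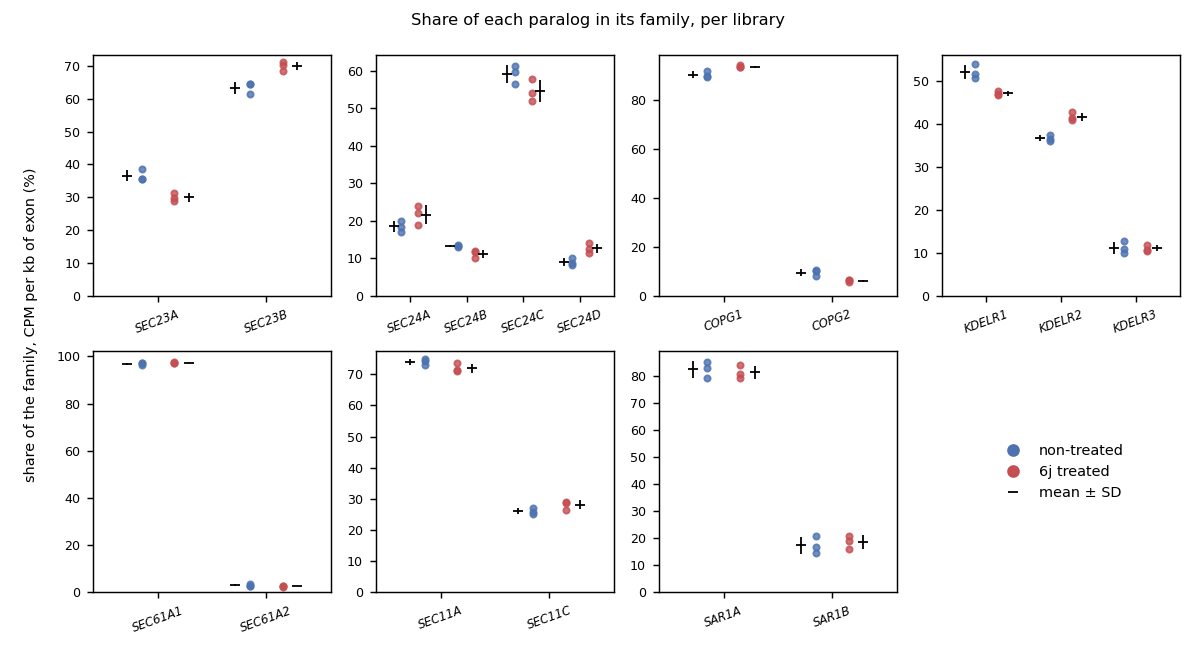
Share of each paralog in its family (y axis from 0, own scale per panel, percent of summed CPM per kb of exon) in the 3 non-treated and the 3 6j treated libraries, with mean ± SD beside the points. SEC23B, SEC24D and KDELR2 take a larger share in every 6j treated library, and COPG2 a smaller one.

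Levels per length differed among the members far more than the treatment changed them. In non-treated cells SRP9 was highest, with 159 ± 8.06 CPM per kb (SD, n = 3), followed by SRP14 (112 ± 2.06) and SEC61A1 (88.6 ± 4.70), and these 3 did not overlap. The next, KDELR1 (66.0 ± 3.46) and LMAN1 (59.5 ± 9.82), did not differ beyond their spread. The lowest were SEC61A2 (2.74 ± 0.30), COPG2 (4.87 ± 0.60), SRP19 (4.96 ± 0.047) and SEC24D (4.99 ± 0.59), of which the last 3 lay within each other's spread. After 6j treatment SEC24D measured 7.38 ± 0.80 and COPG2 3.44 ± 0.23 CPM per kb. Genes with many annotated isoforms have long exon unions, which lowers their value on this scale.

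**Figure D5:**
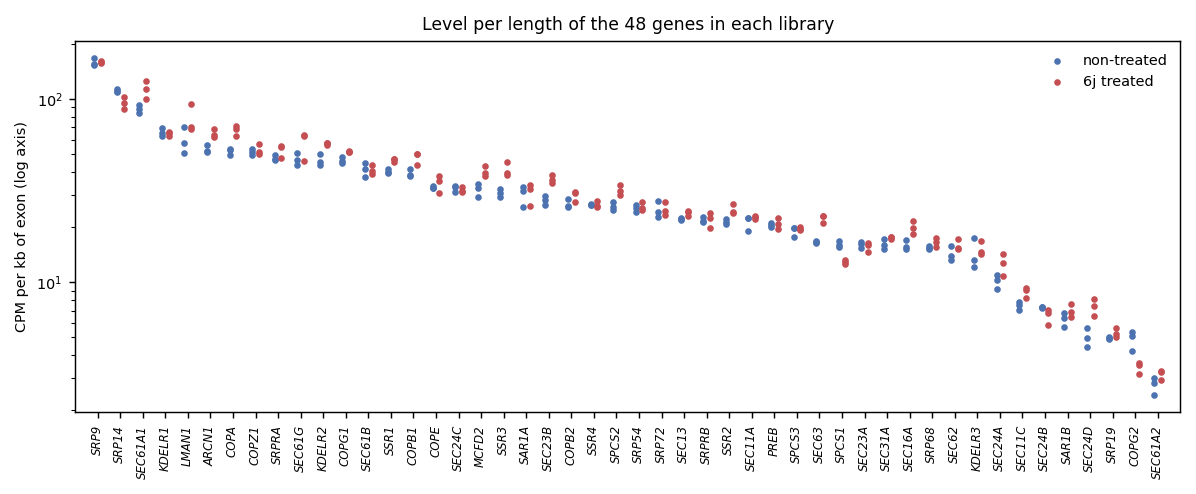
Level of each of the 48 genes in CPM per kb of exon (y axis, log scale) in every library, ordered by the mean of non-treated cells. The genes span from SRP9 at 159 to SEC61A2 at 2.74 CPM per kb, and the groups lie close together for most genes.

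Other genes of the route were taken from lists written from general knowledge. Of 28 other ER entry factors, 1 rose (3.57%) and 2 fell (7.14%) in edgeR, against 4.79% and 4.37% of all rows tested, with a median change of −0.11. Levels of TRAM1 were 422, 489 and 485 CPM without treatment, by replicate number, and 592, 673 and 643 CPM after 6j. TRAM1, a membrane protein next to the channel, rose, with a log2 fold change of 0.45 ± 0.094 (SE, adjusted p = 0.0216). TMEM147 and NCLN, which belong to a complex for multipass proteins at the same channel, fell, by 0.41 ± 0.081 (adjusted p = 0.0180) and 0.57 ± 0.12 (0.0214) on the log2 scale. Of 12 subunits of the oligosaccharyltransferase, which attaches N-glycans, STT3A, a catalytic subunit, rose (0.35 ± 0.077, adjusted p = 0.0270), and OST4 (−0.46 ± 0.12, 0.0503) and KRTCAP2 (−0.25 ± 0.12, 0.221) did not pass. With the block OST4 and KRTCAP2 fell (adjusted p = 0.0012 and 0.0337), which is 16.7% of the list against 13.9% of all rows.

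Of 48 other ER-to-Golgi factors, 4 rose and 2 fell, with a median of 0.081. These were 8.33% and 4.17% of the list, against 4.79% and 4.37% of all rows tested, and the share that fell was near that of all rows. With the block 11 rose (22.9%) and 8 fell (16.7%), against 13.1% and 13.9% of all rows. MIA2 measured 61.5, 64.0 and 54.8 CPM in non-treated replicates 1 to 3, and 103, 126 and 98.5 CPM in 6j treated replicates 1 to 3. MIA2, which acts at ER exit sites in the export of large cargo, rose with a log2 fold change of 0.86 ± 0.11 (SE, adjusted p = 0.00498), and this call held in all 6 fits that left out a library. Subunits of the TRAPP tethering complexes went both ways, TRAPPC6B by 0.48 ± 0.091 (adjusted p = 0.0160) and TRAPPC1 by −0.41 ± 0.079 (0.0171). Of 16 other Golgi-to-ER factors, ARFGAP3, which acts on the GTPase ARF1 of the COPI coat, was the 1 that rose (6.25% of the list, 0.58 ± 0.12, adjusted p = 0.0190). ARF3 (−0.16 ± 0.078, 0.229) and ARF5 (−0.16 ± 0.11, 0.392) did not pass, and the median of this list was 0.0069.

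The regulators of secretory genes are the sensors and transcription factors of the ER stress response and their relatives. Of 13 listed, 11 passed the filter on low counts, and 7 of these rose (63.6%) and none fell, with a median of 0.49. Over all rows tested 4.79% rose and 4.37% fell. This list was written with earlier results of these data known, so its share is no separate support. DDIT3 measured 19.2, 25.6 and 18.1 CPM in the non-treated libraries (replicates 1, 2 and 3), against 86.5, 116 and 102 CPM in the 6j treated ones. DDIT3, a transcription factor of ER stress, had a log2 fold change of 2.27 ± 0.16 (SE, adjusted p = 0.00057) in edgeR. Levels of ATF4 were 313, 349 and 289.6 CPM without treatment, by replicate number, and 693, 660.1 and 686 CPM after 6j. ATF4, which acts upstream of DDIT3, had a change of 1.10 ± 0.092 (adjusted p = 0.00084). ERN1 measured 12.6, 12.4 and 9.05 CPM in non-treated replicates 1 to 3, and 26.2, 32.3 and 25.7 CPM in 6j treated replicates 1 to 3. ERN1, the sensor that splices XBP1 RNA, had a log2 fold change of 1.30 ± 0.16 (SE, adjusted p = 0.00385). These 3 calls held in all 6 fits that left out a library. XBP1 measured 171, 179 and 164 CPM in the non-treated libraries (replicates 1, 2 and 3), against 265, 262 and 217 CPM in the 6j treated ones. XBP1, whose spliced product activates genes of this route, rose by 0.53 ± 0.095 (adjusted p = 0.0131). Levels of HSPA5 were 1622, 1457 and 1446 CPM without treatment, by replicate number, and 2017, 2063 and 1877 CPM after 6j. HSPA5, the main ER chaperone and a KDEL receptor client, rose by 0.40 ± 0.094 (adjusted p = 0.0330). The calls of XBP1 and HSPA5, and those of TRAM1, TMEM147, NCLN, STT3A, TRAPPC6B, TRAPPC1 and ARFGAP3, were lost without non-treated replicate 1 or 6j treated replicate 2, with adjusted p-values of at most 0.127, and some of them also without another library. The gene counts do not separate spliced from unspliced XBP1 RNA. These regulators and the members were measured in the same libraries, and a relation between them was not tested.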

How the data were processed

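Both groups were measured by RNA-seq of oligo(dT)-enriched RNA. The values the authors deposited are whole-number counts, not normalized, for each gene in each of the 6 libraries, with replicates kept apart. The submitters' processing notes name GRCh38, HISAT2 and StringTie. The counting program, whether the values are reads or rounded estimates, and whether strand was used are not given in the sources used here. The 48 members, the steps, the related lists and the motifs were chosen with earlier results of these data known. Members were matched by symbol, and coordinates and exon lengths came from GENCODE 29 (GRCh38).

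From the counts, edgeR 4.0.16 (R 4.3.3) computed TMM factors after filterByExpr (about 10 counts in enough libraries and 15 in total, which kept 15957 of 25445 rows) and robust quasi-likelihood tests with Benjamini-Hochberg adjustment. DESeq2 1.42.0, which the study's methods name, was an alternative. Log2 CPM of single libraries used a prior count of 2. Paralog pairs were compared by exact permutation tests (scipy 1.17.1). The total count per library, 31533403 to 38018349, sets the precision. The scripts were tested on simulated data.

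Values per library were printed for members past an adjusted p of 0.05, for the 2 of each step with the smallest p, and for their paralogs. SRP9, SEC61G, SSR1, SSR4, SEC11C, SEC16A, ARCN1 and COPB1 were printed beyond that rule, after their values were seen. Of each related list the 3 genes with the smallest p were named, with HSPA5 and XBP1 as references, and genes that share exon bases with a member were named beside it.

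The replicate numbers are taken as pairing the libraries, from the data and not from the labels. Over 15957 rows, deviations from the group mean correlated at 0.171, 0.180 and 0.312 between libraries that share a number, and at −0.231 to 0.0795 otherwise. Alternatives changed the normalization, the filter, the rows or the test, left out single libraries, or added the replicate number as a block. DESeq2 with the block was added after the data were seen.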

Additional observations from a re-analysis of the deposited data

How the results depend on the processing

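The number of members higher at an adjusted p under 0.05 was 7 and moved to 12 with DESeq2 and 11 with Ensembl genes only. It was 17 with the replicate block, 17 with DESeq2 and the block, and 5 to 10 with the other normalizations and filters. The share of all rows called higher moved too, from 4.79% to 8.57% with DESeq2 and 6.06% with Ensembl genes only. That share was 13.1% with the block, 12.1% with DESeq2 and the block, and 3.87% to 6.11% with the other normalizations and filters. Leaving out 1 library gave 0 to 8 members higher, 0 to 1 lower and 0 to 2 DEGs. The DEGs were SEC24D and COPG2 without non-treated replicate 3, and SEC24D without 6j treated replicate 1. The median change stayed between 0.12 and 0.18 under the alternatives run. The groups were separated in 7 paralog pairs, and in 7 to 9 without 1 library. With the replicate block the measure is another one, the same direction at all 3 numbers, which held for 12 pairs. The replicate block lost no call of the 9 members. The cause of these shifts was not tested, and the fits that left out 1 library also held fewer libraries.

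Over single members and pairs, 674 of 784 values kept direction and side of the threshold, 41 lost and 41 gained a call, and 28 changed sign, none of them called. SRP9 was −0.0029 with upper quartile normalization, and SEC61B and SSR4 were 0.0096 and 0.0079 with Ensembl genes only. The other sign changes came from leaving out 1 library. The ranges were −0.018 to 0.047 for SRP9, −0.018 to 0.054 for SRP54, −0.056 to 0.093 for SRP72, −0.046 to 0.088 for SRPRB, −0.072 to 0.056 for SEC61B, −0.042 to 0.014 for SSR4 and −0.0088 to 0.069 for SPCS3. They were −0.078 to 0.0031 for SEC23A, −0.068 to 0.14 for SAR1A, −0.028 to 0.074 for PREB, −0.023 to 0.069 for COPZ1, −0.059 to 0.016 for KDELR1, −0.0080 to 0.27 for KDELR3 and −0.028 to 0.28 for SAR1B minus SAR1A.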

Other observations

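Of the 48 members, 20 share exon bases with another gene of the table, 7 on the same strand and 16 on the opposite strand. SEC24A and SAR1B, both of the COPII coat, share 385 bp head to head. Among the partners, RUVBL1 and IDH3G passed at an adjusted p under 0.05 in edgeR, both lower, while the member beside each was at 0.35 ± 0.10 (SEC61A1) and −0.0087 ± 0.074 (SSR4) on the log2 scale.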
